A study of Mus musculus with 20 samples.

Results

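The 10 genes described here are immediate early genes measured in mouse ovaries: Fos, Fosb, Jun, Junb, Egr1, Nr4a1, Atf3, Ier2, Dusp1 and Btg2. They were named by symbol and matched to the Ensembl identifiers of the deposited count tables, where all 10 were found among 54838 genes.

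The ovaries came from female mice of the Dummerstorf lines FL1 and ctrl at 77 days of age, as the labels give it. FL1 was bred for large and heavy litters, whereas ctrl descends from the same outbred base population without selection, and the labels give the genotype as FL1 for the one and WT for the other. Each line was sampled in estrus and in diestrus, staged by vaginal smear, with 5 animals in each of the 4 groups (ctrl diestrus, FL1 diestrus, ctrl estrus and FL1 estrus), and no treatment is named. The mice were killed by CO2 inhalation at the same time of day, blood was drawn, and fat, oviduct and tunica albuginea were taken off each ovary before it was frozen. In estrus the oviduct was also opened to collect oocytes, so that this handling and the stage cannot be told apart, and the minutes from death to freezing are not given in the sources used here. As each line is a single population, selection and drift cannot be told apart in a difference between them, and in a whole organ fewer cells of a type cannot be told apart from less RNA per cell.

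Immediate early genes are transcribed within minutes of a stimulus, without new protein synthesis, and their short-lived transcripts fall again soon afterwards. Growth factors, gonadotropins acting through cyclic AMP, and stress act on them through kinases that reach factors already bound at their promoters, such as CREB at the cyclic AMP response element (CRE) and the serum response factor at the CArG box. Fos, Fosb, Jun and Junb encode subunits of the AP-1 transcription factor, Egr1, Nr4a1 and Atf3 encode other transcription factors, and Dusp1 encodes a phosphatase that switches MAP kinases off again. In the ovary, several of them are known to respond to the ovulatory surge of luteinizing hormone in granulosa cells.

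The promoters of the 4 members with the firmest stage differences for which a sequence was at hand are shown first. That of Btg2, which shares the full CRE with Dusp1, is added. Each is the RefSeq sequence of GRCm38.p6 from 250 bases before to 50 bases after the annotated start, written in the direction of the gene. Capitals mark the letters of the motifs searched on both strands: the full CRE TGACGTCA, its 5-base core TGACG, the EGR site GCGNGGGCG, the TATA box TATAAA, the AP-1 site TGANTCA and the CArG box.
Fos (chr12:85473640-85473939, plus strand): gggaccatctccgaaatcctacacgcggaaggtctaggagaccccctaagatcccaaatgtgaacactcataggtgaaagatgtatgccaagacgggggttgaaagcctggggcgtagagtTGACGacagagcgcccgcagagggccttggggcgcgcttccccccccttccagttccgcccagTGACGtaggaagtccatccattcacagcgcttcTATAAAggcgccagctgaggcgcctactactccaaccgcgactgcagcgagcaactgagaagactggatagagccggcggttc
Jun (chr4:95052173-95052472, minus strand): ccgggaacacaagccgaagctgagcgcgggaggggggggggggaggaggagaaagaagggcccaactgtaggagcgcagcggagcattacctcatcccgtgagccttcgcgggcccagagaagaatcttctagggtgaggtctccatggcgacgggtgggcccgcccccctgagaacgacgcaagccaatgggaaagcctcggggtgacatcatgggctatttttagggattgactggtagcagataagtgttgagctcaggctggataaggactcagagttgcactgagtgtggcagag
Junb (chr8:84978699-84978998, minus strand): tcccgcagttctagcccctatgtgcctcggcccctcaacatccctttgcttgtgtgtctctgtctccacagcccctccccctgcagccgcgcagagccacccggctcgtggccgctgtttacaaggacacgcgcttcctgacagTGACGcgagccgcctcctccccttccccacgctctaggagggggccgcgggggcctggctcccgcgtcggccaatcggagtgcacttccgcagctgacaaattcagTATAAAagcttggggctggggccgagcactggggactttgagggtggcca
Dusp1 (chr17:26508423-26508722, minus strand): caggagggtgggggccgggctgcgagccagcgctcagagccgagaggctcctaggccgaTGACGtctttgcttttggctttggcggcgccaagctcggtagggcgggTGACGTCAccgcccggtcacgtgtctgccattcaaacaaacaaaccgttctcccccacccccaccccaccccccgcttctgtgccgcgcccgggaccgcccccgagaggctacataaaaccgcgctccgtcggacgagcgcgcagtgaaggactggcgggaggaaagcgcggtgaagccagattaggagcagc
Btg2 (chr1:134079106-134079405, minus strand): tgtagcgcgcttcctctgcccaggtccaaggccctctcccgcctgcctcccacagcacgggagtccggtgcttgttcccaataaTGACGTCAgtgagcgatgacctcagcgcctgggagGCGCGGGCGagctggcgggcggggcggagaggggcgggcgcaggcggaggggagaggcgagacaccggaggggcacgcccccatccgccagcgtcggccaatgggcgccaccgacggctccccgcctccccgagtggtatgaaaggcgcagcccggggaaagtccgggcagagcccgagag

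The full CRE was found 143 bases before the start of Dusp1 and 166 bases before that of Btg2, thus in 2 of the 8 members matched by symbol, while 1.79% of 32851 RefSeq promoters of this length held it. The core TGACG was found in 7 of the 8, in Fos at 129 and 66 bases before the start, and in 20.8% of all promoters. Every full CRE counts as 2 cores, because it reads as TGACG on both strands. Nr4a1 held 4 cores, Dusp1 held 3 and Jun held none of the letters searched. The EGR site stood in Btg2, Fosb and Nr4a1 and in 5.55% of all promoters. The TATA box stood in Fos, 33 bases before the start, in Junb, at the annotated start itself, and in 13.6% of all promoters. The AP-1 site and the CArG box, which 7.81% and 1.63% of all promoters held, were not among the letters of these 8 windows. Sites farther upstream, or variants with other letters, were not searched, so a missing motif here does not mean that the gene lacks such a site. No sequence is given for Egr1 and Ier2.

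Reads were 3′ tags, so a transcript was counted near its end and its count did not grow with the length of the gene. Values are given as CPM, the usual counts scaled to a common library size, here with the TMM factors of edgeR over the 20 libraries. The libraries held 5991223 to 10352718 counts with a median of 6957533, and 4 of them (ctrl diestrus replicate 1, ctrl estrus replicate 4, and FL1 estrus replicates 3 and 5) stood apart with 9365338 counts or more, against at most 7664227 in the other 16. Mitochondrial genes took 3.09% to 6.90% of the counts. Markers of granulosa, luteal and oocyte cells were present in every library, with lowest summed levels of 1269, 14769 and 158 CPM, whereas the 6 oviduct markers summed to no more than 6.32 CPM.

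The study asked whether the high ovulation rate of FL1 arises in the ovary itself or from hormones of the wider reproductive axis, and the ovary libraries compare the lines within each stage. For these 10 genes a change is called where the adjusted p was at most 0.05 in edgeR's quasi-likelihood test with Benjamini-Hochberg adjustment over all genes tested, and the calls came from the comparisons of the stages. Averaged over both lines, Fos, Egr1 and Dusp1 fell in estrus against diestrus, none of the 10 rose, and all 10 fitted log2 fold changes lay below 0. Within FL1 alone, Jun, Junb, Egr1 and Dusp1 fell in estrus, and within ctrl alone no member passed. Between FL1 and ctrl no member passed in either stage, with Atf3 in estrus the nearest to the threshold.

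Against all genes tested, the counts of members stood as follows. Averaged over the lines, 3 of 10 members passed, all lower in estrus, where 15.9% of 14154 genes passed in either direction and 7.62% passed as lower in estrus. An unadjusted p under 0.05 was given to 6 of the 10 and to 28.3% of all genes tested. The median log2 fold change of the 10 was -0.47, against 0.00017 over all tested genes. Within FL1, 4 of the 9 tested members passed, all lower in estrus, against 15.9% of 13350 genes in either direction and 8.49% lower in estrus, with medians of -0.44 and 0.0071. The 2 groups of FL1 libraries did not overlap for 1 of these 9 members (Jun) and for 12.1% of all genes tested. Within ctrl, edgeR called none of the 9 tested members, against 2.85% of all genes. There 2 of 9 had an unadjusted p under 0.05, against 15.4% of all genes, and DESeq2 called 1 member (Dusp1) and 771 of 15238 genes. All 9 fitted changes in ctrl lay below 0 with a median of -0.40, and the groups overlapped for every member, against 4.56% of genes without overlap. The comparisons averaged over the lines use the same libraries as those within each line.

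Between the lines, edgeR called none of 9 tested members in estrus and none of 10 in diestrus, against 2.33% and 4.11% of all genes. An unadjusted p under 0.05 was given to 2 members in estrus (Atf3 and Btg2) and to 3 in diestrus (Junb, Egr1 and Dusp1), against 15.9% and 17.7% of all genes, and DESeq2 called 1 member (Atf3) in estrus, where it called 670 of 16872 genes, and 0 in diestrus, where it called 891 of 16729. The FL1 and ctrl libraries overlapped for every member in both stages, where 4.85% of genes in estrus and 5.4% in diestrus did not overlap. In each stage 8 of the fitted differences were positive, that is, higher in FL1, with medians of 0.27 in estrus and 0.17 in diestrus against -0.0052 and -0.0093 over all genes. Jun was the negative one in both stages, joined by Fosb in diestrus. Averaged over the stages, none of 10 passed with edgeR or DESeq2, where 7.56% of all genes passed with edgeR, and 4 had an unadjusted p under 0.05, against 19.99% of all genes. The interaction of line and stage, which asks whether the stage change differed between the lines, was called for none of the 10 and for 8 of 14154 genes (0.0565%). For it 1 member had an unadjusted p under 0.05, against 11.7% of all genes, and DESeq2 called none of the 10.

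**Figure D1:**
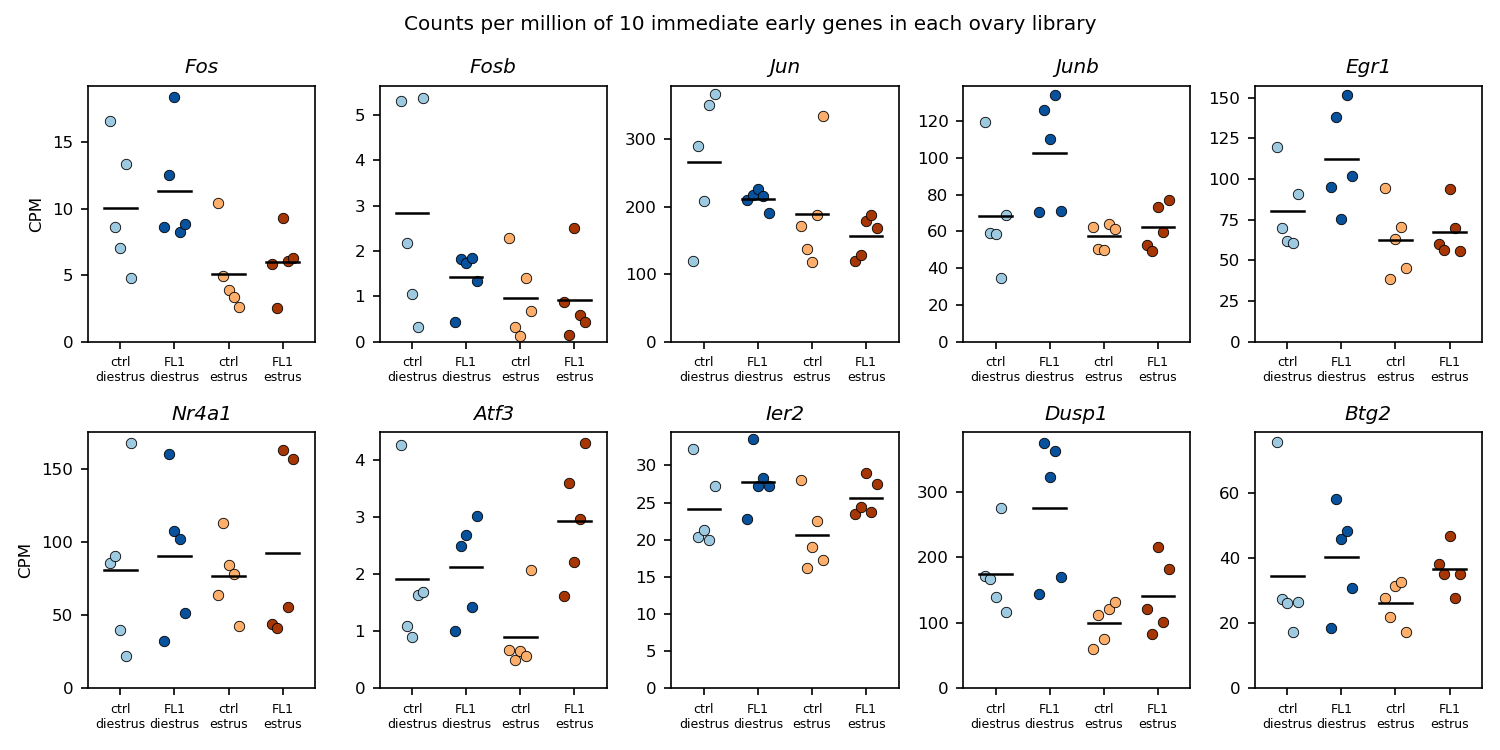
Each point is 1 library, with the replicates of a group in order from left to right, each bar is the group mean, and the vertical axis is CPM from 0. The FL1 diestrus values of Jun lie between 191 and 226 CPM, all above the 5 FL1 estrus values, whereas Nr4a1 spreads from 22.2 to 168 CPM within the ctrl diestrus group alone.

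Among the AP-1 subunits, Fos, which acts as a dimer with a Jun protein, gave the largest of the 3 stage differences that passed when averaged over the lines. It stood at 16.6, 8.62, 7.04, 13.4 and 4.76 CPM in the 5 ctrl diestrus libraries and at 10.5, 4.96, 3.92, 3.4 and 2.58 CPM in the 5 ctrl estrus libraries. In FL1 it stood at 8.65, 12.5, 18.4, 8.23 and 8.87 CPM in diestrus and at 5.88, 2.54, 9.33, 6.07 and 6.32 CPM in estrus. In FL1, 4 estrus libraries lay below every diestrus library and replicate 3 lay among them. In ctrl, 3 estrus libraries lay below every diestrus library, and replicates 1 and 2 lay among them. Averaged over the lines, the log2 fold change of Fos in estrus was -0.95 ± 0.27 (SE), with an adjusted p of 0.0176. The fitted changes within the lines were -1.0 ± 0.41 in ctrl (adjusted p = 0.244) and -0.89 ± 0.30 in FL1 (adjusted p = 0.052), neither of which passed. Without FL1 estrus replicate 3 the change in FL1 passed, at -1.11. Between the lines Fos differed by 0.15 ± 0.32 in diestrus and 0.25 ± 0.39 in estrus, both within the spread between animals.

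Fosb, a second Fos-type partner, was the member with the lowest counts. It ranged from 0.327 to 5.38 CPM in ctrl diestrus, 0.131 to 2.28 in ctrl estrus, 0.432 to 1.85 in FL1 diestrus and 0.149 to 2.52 in FL1 estrus, that is, from 1 to 56 counts. The groups overlapped throughout. It was too low to be tested between FL1 and ctrl in estrus and between the stages in FL1. The stage difference averaged over the lines was -1.06 ± 0.51 (adjusted p = 0.173), and in ctrl it was -1.52 ± 0.73 (adjusted p = 0.341), neither of which passed.

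Jun, the subunit that can also pair with itself, lies at chromosome 4, 95049034 to 95052222 in GRCm38, where Junos is annotated on the opposite strand. It stood at 209, 217, 226, 217 and 191 CPM in FL1 diestrus and at 119.8, 129, 178, 188 and 168 CPM in FL1 estrus. All 5 diestrus libraries of FL1 lay above all 5 estrus libraries, with a fitted log2 fold change of -0.44 ± 0.11, an adjusted p of 0.0141 and an exact two-sided permutation p of 0.00794, the smallest that 5 against 5 libraries can give. In ctrl it stood at 119, 289.9, 208, 350.2 and 367 CPM in diestrus and at 172, 138, 118, 188 and 334 CPM in estrus. The ctrl groups overlapped, as replicate 1 of diestrus was among the lowest of all libraries and replicate 5 of estrus among the highest. The fitted stage change in ctrl was -0.49 ± 0.32 (adjusted p = 0.519), and the difference between the lines in the stage change was 0.05 ± 0.36 (adjusted p = 0.975). The SD of log2 CPM was 0.67 in ctrl diestrus and 0.57 in ctrl estrus against 0.09 and 0.29 in the same stages of FL1, a contrast in spread that was noticed in the data and not tested.

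Junb, which often restrains the activity of Jun, overlaps Prdx2 on the opposite strand of chromosome 8 (84974484 to 84978718). It stood at 70.6, 126, 110.2, 134 and 71.0 CPM in FL1 diestrus and at 52.8, 49.2, 73.2, 59.7 and 77.1 CPM in FL1 estrus. In diestrus 3 FL1 libraries exceeded every estrus library, while the other two lay among the estrus values. The fitted log2 fold change of Junb in FL1 estrus was -0.71 ± 0.18 (adjusted p = 0.0123, exact permutation p = 0.0476). In ctrl it stood at 119, 59.1, 58.8, 34.6 and 69.0 CPM in diestrus and at 62.6, 50.3, 50.04, 64.0 and 61.1 CPM in estrus. In ctrl the diestrus libraries lay on both sides of the estrus libraries, and the fitted change was -0.25 ± 0.24 (adjusted p = 0.714). In diestrus, FL1 exceeded ctrl by 0.58 ± 0.27 with an adjusted p of 0.279, and FL1 was higher in 22 of 25 pairs of libraries. Without the high ctrl diestrus replicate 1, Junb was called higher and Jun lower in FL1, with log2 fold changes of 0.88 and -0.53.

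**Figure D2:**
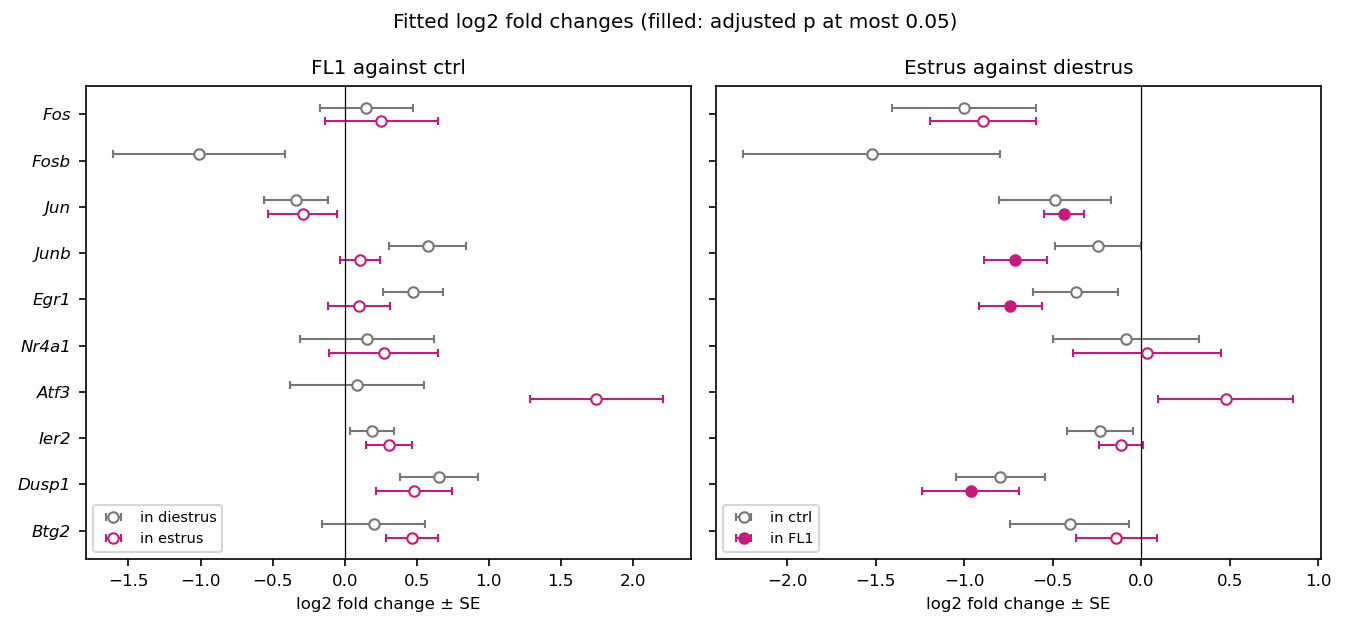
Fitted log2 fold changes with their SE for FL1 against ctrl on the left, in diestrus and in estrus, and for estrus against diestrus on the right, in ctrl and in FL1, with filled points where the adjusted p was at most 0.05. The 4 filled points are Jun, Junb, Egr1 and Dusp1 in FL1, all below 0, and none lies in the left panel.

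Egr1, a zinc finger transcription factor needed for expression of the pituitary luteinizing hormone beta subunit and also induced in the ovary, fell in FL1 estrus. It stood at 95.4, 138, 75.3, 152 and 102 CPM in FL1 diestrus and at 59.997, 56.5, 94.1, 69.9 and 56.1 CPM in FL1 estrus. The groups overlapped through 1 library each, as the lowest diestrus library fell below the highest estrus library. The fitted change was -0.74 ± 0.18 (adjusted p = 0.00945, exact permutation p = 0.0159). In ctrl it stood at 119.6, 70.0, 62.2, 60.6 and 90.8 CPM in diestrus and at 94.5, 38.6, 63.2, 70.8 and 45.1 CPM in estrus. The ctrl groups overlapped widely, with a change of -0.37 ± 0.24 (adjusted p = 0.52). Averaged over the lines the change was -0.55 ± 0.16 (adjusted p = 0.024). That call was lost without ctrl diestrus replicate 1 or without FL1 diestrus replicate 4, at log2 fold changes of -0.46 and -0.49. By group mean, Egr1 was highest in FL1 diestrus with 113 ± 31.5 CPM (SD, n = 5), followed by ctrl diestrus with 80.6 ± 24.9, FL1 estrus with 67.3 ± 15.96 and ctrl estrus with 62.4 ± 22.2, and neighbours in this order overlapped.

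Nr4a1, an orphan nuclear receptor that acts on steroidogenic genes, showed no detectable difference by stage or line. It stood at 85.6, 90.3, 40.2, 22.2 and 168 CPM in ctrl diestrus and at 64.1, 113, 84.3, 78.2 and 42.9 CPM in ctrl estrus. In FL1 it stood at 32.1, 160.1, 108, 102 and 51.2 CPM in diestrus and at 44.1, 41.4, 163, 55.8 and 157 CPM in estrus. Within 3 of the 4 groups the highest animal exceeded the lowest several-fold, and all groups overlapped. The stage difference averaged over the lines was -0.03 ± 0.34 and the line difference averaged over the stages was 0.22 ± 0.34 (adjusted p = 0.974 and 0.799 in edgeR's quasi-likelihood test), each smaller than its own SE.

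Atf3, a stress-responsive factor of the bZIP class that Fos and Jun belong to, was the member nearest to a line difference. It stood at 0.67, 0.496, 0.653, 0.566 and 2.07 CPM in ctrl estrus and at 1.62, 3.59, 2.2, 2.96 and 4.28 CPM in FL1 estrus. In 4 ctrl libraries Atf3 lay below every FL1 library, and ctrl replicate 5 exceeded only the lowest FL1 library. FL1 exceeded ctrl in 24 of 25 pairs of libraries, by 1.75 ± 0.46 on the log2 scale. The adjusted p was 0.0681 and the exact permutation p was 0.0159, so the difference did not pass over all genes. It passed with DESeq2 and with limma-voom, and without ctrl estrus replicate 5 the fitted difference was 2.27 and passed. The counts behind these values were low, 3 to 12 in ctrl and 11 to 40 in FL1. In diestrus Atf3 stood at 4.26, 1.09, 0.899, 1.63 and 1.69 CPM in ctrl and at 1.01, 2.48, 2.68, 1.42 and 3.01 CPM in FL1. There the lines overlapped, with a difference of 0.09 ± 0.46 (adjusted p = 0.955), and the interaction of line and stage was 1.65 ± 0.68 (unadjusted p = 0.0234, adjusted p = 0.334 by edgeR). Gm24748 is annotated on the opposite strand within the gene.

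Ier2, a small nuclear regulator of transcription, varied least. It ranged from 19.9 to 32.2 CPM in ctrl diestrus, 16.2 to 28.0 in ctrl estrus, 22.8 to 33.6 in FL1 diestrus and 23.5 to 29.1 in FL1 estrus. The groups overlapped in each comparison. The stage difference averaged over the lines was -0.17 ± 0.11 (adjusted p = 0.343), and FL1 exceeded ctrl by 0.25 ± 0.11 averaged over the stages (adjusted p = 0.205).

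Dusp1, the phosphatase that dephosphorylates MAP kinases and so limits the signal that induced it, gave the smallest p of the 10 for the stage averaged over the lines. It stood at 171, 166, 139, 275 and 116 CPM in ctrl diestrus and at 59.9, 112, 74.6, 122 and 131 CPM in ctrl estrus. In FL1 it stood at 143, 374, 322, 362 and 169.7 CPM in diestrus and at 120.4, 83.4, 215, 101 and 181 CPM in estrus. In each line the estrus values reached into the lower part of the diestrus values. Averaged over the lines, Dusp1 fell in estrus with a log2 fold change of -0.88 ± 0.21 (adjusted p = 0.0057), a call that each of the 20 fits without 1 library gave. Within FL1 the change was -0.96 ± 0.28 (adjusted p = 0.0249), which 4 of 10 fits without 1 library gave and DESeq2 did not. The call was lost without FL1 estrus replicate 1, 2 or 4 and without FL1 diestrus replicate 2, 3 or 4, with fitted changes between -0.82 and -0.91. Within ctrl it was -0.80 ± 0.25 (adjusted p = 0.121), and the difference between these changes was -0.17 ± 0.42 (adjusted p = 0.91). FL1 was the higher line by 0.65 ± 0.27 in diestrus (adjusted p = 0.223) and by 0.48 ± 0.26 in estrus (adjusted p = 0.4), neither of which passed. The order of the group means was FL1 diestrus with 274.2 ± 109.5 CPM (SD, n = 5), ctrl diestrus with 174 ± 60.9, FL1 estrus with 140.2 ± 55.9 and ctrl estrus with 99.9 ± 30.9, and neighbours in it overlapped. The gene spans chromosome 17, 26505590 to 26562128, and shares that span with 2 genes on its own strand and 2 on the opposite one. No transcript of another gene shared sequence with the ends of the Dusp1 transcripts when read in the same direction. The opposite direction was not searched.

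Btg2, an antiproliferative factor that also speeds up the decay of messenger RNA, did not pass in any comparison. It stood at 27.6, 22.0, 31.5, 32.6 and 17.4 CPM in ctrl estrus and at 38.1, 35.1, 46.9, 27.7 and 35.0 CPM in FL1 estrus. FL1 was higher in 23 of 25 pairs, by 0.47 ± 0.18, with an adjusted p of 0.212. In diestrus it ranged from 17.2 to 75.6 CPM in ctrl and from 18.4 to 58.1 CPM in FL1, and the high end of ctrl was replicate 1 alone. The stage difference averaged over the lines was -0.27 ± 0.22 (adjusted p = 0.469).

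Most members differed more between animals of 1 group than other genes of their abundance did. The biological coefficient of variation (BCV) of edgeR, divided by its trend at the same abundance, was 3.19 for Nr4a1, 2.02 for Dusp1, 1.89 for Btg2, 1.74 for Jun, 1.61 for Junb, 1.60 for Egr1, 1.57 for Fosb and 1.42 for Fos. Over all tested genes the median of this ratio was 0.872, and these 8 members lay between the 92.6th and the 99.6th percentile. Atf3 stood nearer to the median, with a ratio of 1.02 at the 69.8th percentile, and Ier2 lay just under it with 0.864.

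**Figure D3:**
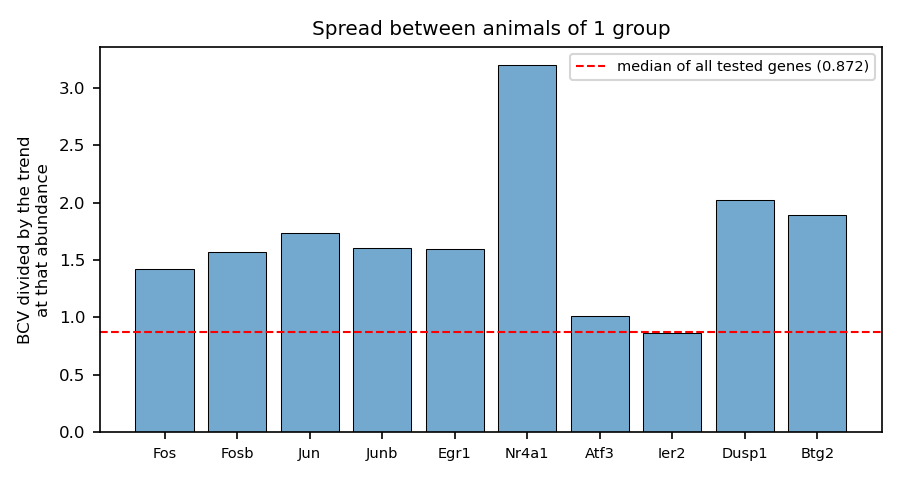
Bars show the BCV of each member divided by the trend at its abundance, over the 20 libraries with group means removed, and the dashed line is the median of all tested genes. The bar of Nr4a1 reaches 3.19, and that of Ier2 lies just under the median of 0.872.

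Part of this spread was shared between genes. With group means removed from log2 CPM, 38 of the 45 pairs of members had a positive Pearson's r over the 20 libraries, with a median of 0.3003. In 10 pairs, all positive, the adjusted p was at most 0.05 by both r and Spearman's rho, in a permutation test within groups adjusted over the 45 pairs. These 10 pairs joined Fosb, Junb, Egr1, Nr4a1, Ier2 and Btg2. Egr1 and Ier2 were the closest, with r = 0.827 and rho = 0.786 (permutation p = 0.00019, adjusted p = 0.00405 for r) and r = 0.728 without the 2 libraries farthest from the median of Egr1. Junb and Btg2 followed with r = 0.803 and rho = 0.717 (permutation p = 0.00187, adjusted p = 0.0140 for r) and r = 0.623 without the 2 farthest libraries. Fos, Dusp1, Atf3 and Jun were in none of the 10 pairs, and Jun went against Btg2 with r = -0.567 (adjusted p = 0.0808 in the same permutation test). Pairs of other genes were not put through this test. Whether 38 positive and 10 passing pairs of 45 are more than other genes give was therefore not tested.

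**Figure D4:**
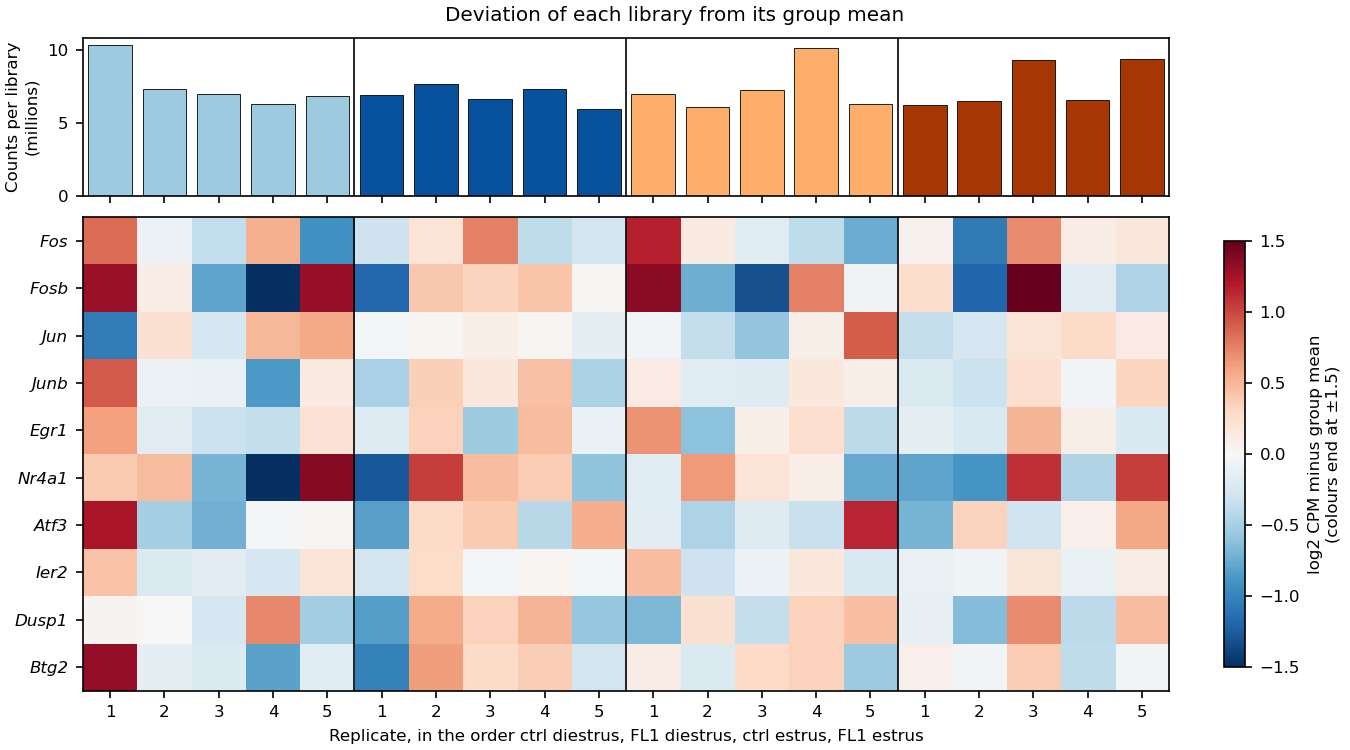
The upper panel gives the total counts of each library, and the lower panel colours log2 CPM minus the group mean for each member (rows) in each library (columns, replicates 1 to 5 of each group). Ctrl diestrus replicate 1, the deepest library, is above its group mean in 9 of 10 members, FL1 diestrus replicate 2 in all 10, and FL1 diestrus replicate 1 and ctrl diestrus replicate 3 in none.

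Depth moved with this shared spread. The mean standardised deviation of the 10 members in a library correlated with log2 total counts, group means removed, at r = 0.680 and rho = 0.644 over the 20 libraries, and at r = 0.629 without the 2 farthest. Singly, r with depth was 0.706 for Junb, 0.655 for Btg2, 0.627 for Ier2 and 0.578 for Egr1, whereas the central 90% of tested genes lay between -0.369 and 0.400. Nr4a1 with 0.515 and Fosb with 0.478 also lay above that range. Dusp1 with 0.363, Fos with 0.284, Atf3 with 0.168 and Jun with -0.251 lay within it. When log2 total counts were taken out of each member's deviations, 36 of 45 pairs still had a positive r, with a median of 0.183 and a highest value of 0.731 (Egr1 and Ier2), but no pair passed. Over the 16 libraries without the 4 deepest the median r was 0.205 and 1 pair passed, Fosb and Junb with r = 0.735 and rho = 0.821 (adjusted permutation p = 0.00945 for r). The labels name no batch of sequencing, and what depth stands for in these libraries was not tested.

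**Figure D5:**
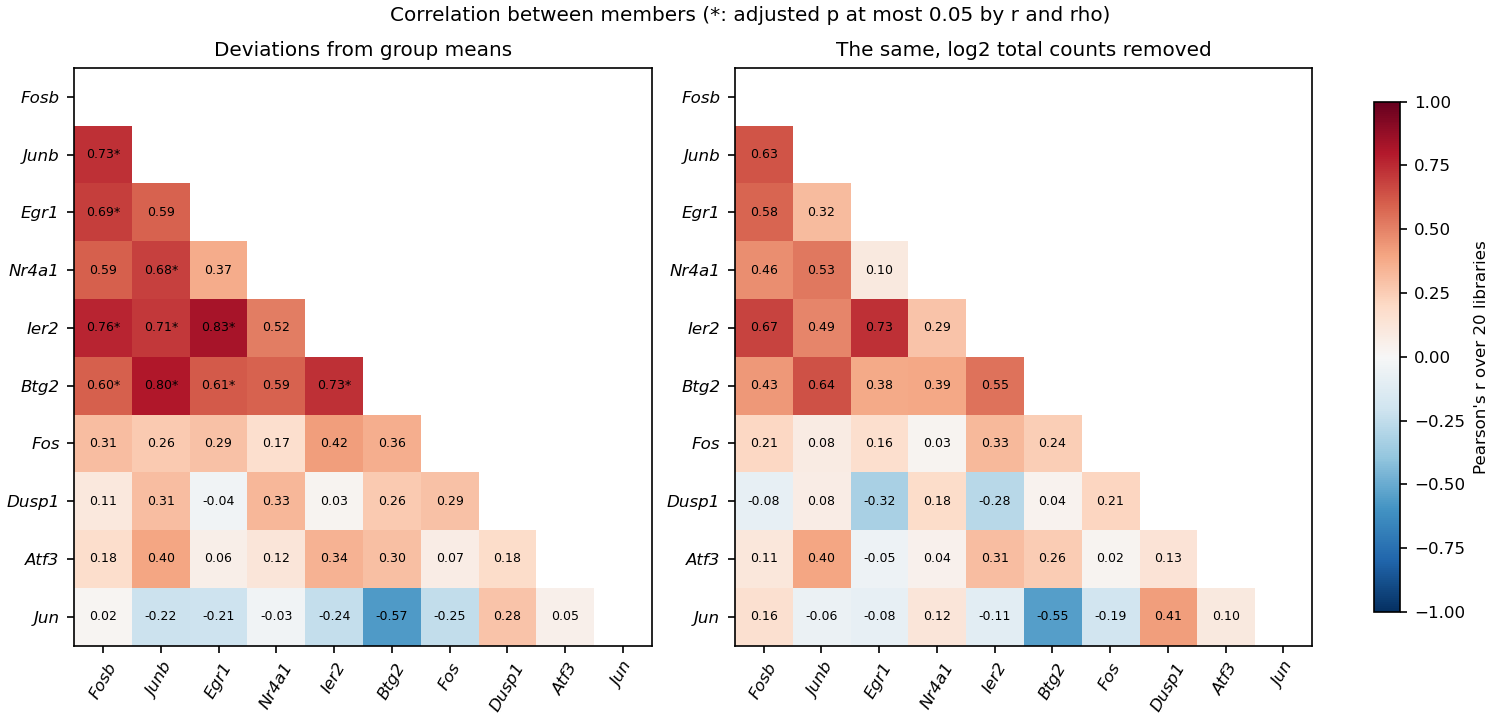
Pearson's r between the members over the 20 libraries, from log2 CPM with group means removed (left) and with log2 total counts removed as well (right), with a star where the adjusted p was at most 0.05 by both r and rho. All 10 stars are on the left, among Fosb, Junb, Egr1, Nr4a1, Ier2 and Btg2, and the colours of the same block are paler on the right.

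Depth was also taken into account in further fits. With log2 total counts as a covariate of the fit, 4 members passed for the stage averaged over the lines (Fos, Egr1, Dusp1 and Junb) and 5 within FL1 (Fos, Jun, Junb, Egr1 and Dusp1). Over all genes the same fits called 2164 of 14154 averaged over the lines, down from 2245 without the covariate. Within FL1 they called 2414 of 13350, up from 2123. Without the 4 deepest libraries, 4 passed averaged over the lines (Fos, Egr1, Dusp1 and Jun) and the same 5 within FL1, where 1896 of 14469 and 2191 of 13712 genes were called. In these fits Junb was also called higher in FL1 than in ctrl in diestrus, together with Egr1 in the first and with a lower Jun in the second. In diestrus the second fit leaves out ctrl diestrus replicate 1 alone, so it is the fit already given for Junb. Both fits were chosen after the data had been seen.

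Genes around the members in the same pathway were read from lists. Over all genes, 15.9% passed between the stages in FL1, 8.49% as lower in estrus, and 2.85% passed in ctrl. Averaged over the lines it was 15.9%, with 7.62% lower in estrus. For FL1 against ctrl, 2.33% of all genes passed in estrus, 4.11% in diestrus and 7.56% averaged over the stages. Of 41 other immediate early genes 38 were tested, and 5 fell and none rose in FL1 estrus, with a median of -0.17, where 8.49% of all genes fell. Averaged over the lines 5 of 38 fell as well, and the log2 fold changes were -0.52 ± 0.08 for Klf6, -0.70 ± 0.14 for Phlda1, -0.79 ± 0.18 for Trib1, a pseudokinase, and -0.32 ± 0.08 for Klf2, a factor that responds to blood flow in vessels. In ctrl alone, 1 of 38 passed, Phlda1 with -0.74 ± 0.18. Between the lines, 2 of 37 tested were higher in FL1 in diestrus, Klf2 by 0.58 ± 0.11 and Ier5 by 0.43 ± 0.11 on the log2 scale, none of 38 passed in estrus, and Klf2 alone passed averaged over the stages, by 0.36 ± 0.08. The study's own qPCR of Klf2 in diestrus did not repeat the rise, with a small change in the opposite direction that was not marked as significant. Of the MAP kinase feedback inhibitors besides Dusp1, 13 of 14 were tested and 1 (Dusp16) fell in FL1 estrus, with a log2 fold change of -0.64 ± 0.17. Dusp6, the phosphatase specific for ERK, was the 1 of 13 higher in FL1 in diestrus, by 0.56 ± 0.15. Averaged over the stages Dusp6 was also higher in FL1, by 0.46 ± 0.10, whereas Dusp7, Dusp8 and Dusp14 were lower. Of 24 kinases and factors upstream, 5 fell and 1 rose in FL1 estrus. The log2 fold change was -0.87 ± 0.14 for Crem, a cyclic AMP responsive factor of the CREB family, and -0.42 ± 0.10 for Mapk3, which encodes ERK1. Mrtfb, Prkaca and Elk1 were the others that fell, whereas Srf, the serum response factor itself, rose by 1.34 ± 0.40. Of the 14 heat shock genes, 7 fell and none rose in FL1 estrus, and none passed in ctrl, where 2.85% of all genes passed. Averaged over the lines 2 of the 14 fell and none rose. The interaction of line and stage was called for none of the 14, against 0.0565% of all genes. Between the lines Hspa1a was lower in FL1 in estrus, by a log2 fold change of -1.26 ± 0.26, and Hspe1 in diestrus, by -0.63 ± 0.11. Of 16 ovulation genes 10 were tested in FL1, where 4 rose and 2 fell in estrus, and Adamts1, a protease of the ovulating follicle, rose by 2.28 ± 0.22. The median log2 fold change of these 10 was 0.52. The summed level of all 16 was nevertheless lower in estrus, with 1343 to 4278 CPM against 5502 to 8564 CPM in FL1 diestrus.

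Markers of several cell types moved with the stage too, and their part in the members' differences was not tested. In FL1, luteal markers fell in estrus for 6 of 8 tested and rose for 1, with a summed level of 33048 to 44296 CPM in diestrus and 18679 to 34965 CPM in estrus. Endothelial markers fell for 6 of 8, from 442 to 551 CPM in diestrus to 278 to 361 CPM in estrus. Blood cell markers fell for 4 of 7, with ranges of 1285 to 3545 and 880 to 1676 CPM, and granulosa markers fell for 3 of 7 tested, with ranges of 2768 to 4042 and 2496 to 3973 CPM. Smooth muscle markers rose for 4 of 6, with 869 to 1427 CPM in diestrus and 1256 to 1648 CPM in estrus. Of the fat cell markers 1 of 4 tested rose, of the oocyte markers 1 of 8 rose, none of 8 macrophage markers passed, and no oviduct marker was high enough to be tested in FL1, where Dnah5 was at 0 in every library. In ctrl, 1 luteal marker fell and 1 rose, 2 smooth muscle markers and 1 macrophage marker rose, 1 granulosa marker fell, and no endothelial, blood, fat, oocyte or oviduct marker passed. The median log2 fold changes in ctrl and in FL1 were -0.72 and -0.83 for luteal and -0.945 and -0.914 for blood cell markers. They were -0.78 and -0.55 for granulosa, -0.15 and -0.64 for endothelial and 0.79 and 0.61 for smooth muscle markers. Over all genes, 2.85% passed in ctrl and 15.9% in FL1, 8.49% as lower in estrus. Within groups, the members' mean deviation correlated with the log2 summed level of the smooth muscle markers at r = 0.502 (0.194 without the 2 farthest libraries) and with that of the blood cell markers at r = -0.377 (-0.585 without the 2 farthest), each over 20 libraries as a description.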

How the data were processed

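RNA of whole ovaries was extracted with the RNeasy Plus Micro kit, made into QuantSeq 3′ mRNA-Seq forward libraries and sequenced on an Illumina HiSeq instrument. After trimming, the authors mapped the reads to GRCm38 with STAR, and they deposited 1 table of raw counts per gene and library. The counting tool and its strand setting are not given in the sources used here, so reads of overlapping genes on opposite strands cannot be told apart. Groups came from the sample titles, because the source field names FL1 for all 20 samples. Libraries are 1 animal each, and replicate pairs of a group all differed by more than counting noise.

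From the counts, edgeR 4.0.16 (R 4.3.3) gave TMM factors, a filter (filterByExpr, minimum count 10), quasi-likelihood tests and Benjamini-Hochberg adjusted p-values over all tested genes, called at 0.05. Each comparison of 2 groups was fitted on its 10 libraries, and the averages over lines or stages and the interaction on all 20. Exact permutation tests (two-sided, 252 assignments, smallest p 0.00794) used log2 CPM with a prior count of 2. Correlations used 100000 permutations within groups. On simulated counts with 200 genes changed by 1.5 on the log2 scale, the fit of FL1 against ctrl in estrus recovered 169 with 5 other calls, and that of the stages in FL1 recovered 186 with 15 other calls. That of the interaction recovered 138 with 6 other calls. The changed genes were drawn from all genes tested, and the members' called stage changes were smaller than 1.5. Recovery of changes of the members' size and spread was not simulated. Alternatives were DESeq2 1.42.0, limma-voom (limma 3.58.1), RLE size factors, other filters, a replicate block, 1 fit of all 20 libraries and leaving out each library.

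The members, the 14 other lists and the tests were chosen with earlier results of these data known. All members were named, and of the other lists those passing in a comparison with the smallest p, up to 4, with more named where a count is spelled out, and also the 5 genes most like the members in their deviations.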

Additional observations from a re-analysis of the deposited data

Results flagged for a closer look

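In 40 groups of 5 libraries, 10 members in 4 groups, the highest or lowest library was set against Dixon's 95% critical value of 0.71 for the gap to its nearest neighbour over the range of the group. For normally distributed values, chance alone flags about 1 in 20 such groups. Here the values were CPM without a log scale, which favours high flags, and the 40 groups share the same 20 libraries. The 1 in 20 therefore does not apply as a chance rate. The groups flagged were 3, all of them for a high library of a ctrl group. Atf3 reached 4.26 CPM in ctrl diestrus replicate 1, where the next library had 1.69 CPM and the lowest 0.899. Atf3 also reached 2.07 CPM in ctrl estrus replicate 5, against 0.670 CPM in the next library, and this is the library without which the line difference of Atf3 in estrus passed. Btg2 reached 75.6 CPM in ctrl diestrus replicate 1, against 27.5 CPM in the next, in the deepest of the 20 libraries.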

How the results depend on the processing

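The number of members called changed as follows. For FL1 against ctrl in estrus, where edgeR called 0, DESeq2, limma-voom and 1 fit of all 20 libraries each called 1 (Atf3). For the stages in ctrl, DESeq2, limma-voom and a filter of at least 1 count in total each called 1 (Dusp1) in place of 0. Averaged over the stages, limma-voom called 1 (Atf3) and the filter of 1 count called 1 (Dusp1) in place of 0. For FL1 against ctrl in diestrus, log2 total counts as a covariate gave 2 and leaving out the 4 deepest libraries gave 2 in place of 0. For the stages in FL1, DESeq2 called 4 with Fos in place of Dusp1, limma-voom and the filter of 1 count called 5 (Fos joined), and 1 fit of all 20 libraries called 2 in place of 4, without Jun and Junb. Averaged over the lines, DESeq2 called 4 (Junb joined), limma-voom called 4 (Jun joined) and the filter of 1 count called 5 (both joined) in place of 3. With 1 library left out, the calls ranged from 0 to 1 for FL1 against ctrl in estrus, 0 to 2 in diestrus and 0 to 3 averaged over the stages, from 3 to 5 for the stages in FL1 and from 2 to 5 averaged over the lines. They stayed at 0 for the stages in ctrl and for the interaction. In the average over the lines, Jun was called without ctrl estrus replicate 5 and without ctrl diestrus replicate 1. The 3 members called for FL1 against ctrl averaged over the stages without ctrl diestrus replicate 1 were Atf3, Btg2 and Junb.

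With the replicate number as a replicate block, 5 members were called for the stages in FL1 (Fos joined) and 4 averaged over the lines (Jun joined), and no other call changed. The numbers only name the animals: same-numbered libraries correlated between -0.109 and 0.137 in their deviations from the group means, with at most 1 of 5 pairs above 0.1 in a comparison.

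Over all members, comparisons and alternatives, 1479 fitted changes stayed on their side of the threshold, 41 newly passed, 11 no longer passed and none that passed changed direction. The median r between members was 0.295 with a prior count of 0.5, 0.302 with RLE size factors, 0.260 without the 2 farthest libraries, 0.205 without the 4 deepest libraries and 0.183 with depth removed. Over all genes, the calls for FL1 against ctrl in estrus (311) moved to 670 with DESeq2 and 121 without the 4 deepest libraries, and to 175 without FL1 estrus replicate 2. In diestrus (545) they moved to 891 with DESeq2 and to 349 without FL1 diestrus replicate 4. For the stages in ctrl (380) they moved to 909 in 1 fit of all 20 libraries, to 204 without the 4 deepest libraries and to 176 without ctrl diestrus replicate 4, and for the interaction (8) they lay between 0 and 148, the latter with DESeq2. Fosb had 1 to 56 counts and Atf3 3 to 45, and with 5 libraries a group no exact permutation p can fall under 0.00794.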

Other observations

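Outside the list, the 5 tested genes whose deviations from the group means most resembled the mean of the 10 members over the 20 libraries were Med18 (r = 0.785), Timp1 (r = 0.767), Dhx29 (r = 0.763), Grm7 (r = 0.763) and Nlrp10 (r = 0.759). They are the top of 14154 values with a median of 0.0065 and are given as a description. Timp1, an inhibitor of metalloproteinases, was abundant with a mean of 676 CPM, whereas Med18, Grm7 and Nlrp10 lay between 2.72 and 4.91 CPM. By list, the median r was 0.495 for the 6 smooth muscle markers, 0.291 for the 38 other immediate early genes tested, 0.235 for the 13 MAP kinase feedback inhibitors, -0.175 for the 14 heat shock genes and -0.386 for the 7 blood cell markers.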
